A study of Homo sapiens with 6 samples.

Results

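The genes described here are 10 components of B cell receptor signalling, measured in MM.1S, a human multiple myeloma cell line, with and without CD38. They were taken by name (CD79A, CD79B, LYN, BLK, SYK, BTK, BLNK, CD22, CD72 and PTPN6), and each matched 1 gene among the 60671 in the deposited count table. Of the 10, 9 had enough reads to be tested and CD22 did not. RNA was sequenced from 3 wild-type (WT) libraries and 3 libraries of a CRISPR/Cas9 clone lacking CD38 (CD38 KO). Cells of both groups carried a GFP and a click beetle red luciferase transgene delivered by lentivirus, and both were sorted for live cells, the WT cells as CD38-positive and the CD38 KO cells as CD38-negative. All CD38 KO libraries came from 1 clone, so an effect of CD38 loss and a difference particular to that clone cannot be told apart, and the sort ran in the same direction as the genotype. The p-values measure the difference between these populations against the spread of replicates prepared from them.

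The B cell receptor is a membrane immunoglobulin bound to the CD79A and CD79B heterodimer, whose cytoplasmic tails are phosphorylated by Src family kinases such as LYN and BLK. The kinase SYK docks on the phosphorylated tails and, with the adaptor BLNK and the kinase BTK, activates phospholipase C and downstream calcium, PKC and NF-kB signalling. CD22 and CD72 are inhibitory receptors that recruit PTPN6 (SHP-1), a tyrosine phosphatase that opposes these kinases. Plasma cells and myelomas usually express much of this machinery less than mature B cells do.

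Library totals ranged from 61515519 to 72335496 counts. CD38 itself was at 40.6 ± 1.90 CPM in WT against 0.972 ± 0.322 in CD38 KO (SD, n = 3), in CPM, a count normalised by the TMM-adjusted total of its library. The sort gated on the CD38 protein, so this level is no independent check. The 8 plasma cell markers summed to 7139 to 7145 CPM in the WT libraries and 9088 to 9121 CPM in the CD38 KO libraries. Of these, 5 were higher by edgeR, with XBP1 and JCHAIN adding most, MZB1 and SLAMF7 were lower and SDC1 was not called. Of 10 mature B cell markers only CD40 and BACH2 averaged at least 1 CPM, and MS4A1 (CD20) and PAX5 had means of at most 0.0215 CPM in either group. The cells are labelled as B lymphoblasts, and these levels are those of a line with plasma cell markers and few mature B cell markers. The 8 T and NK cell markers summed to 1.49 to 1.65 CPM in WT against 5.31 to 5.67 in CD38 KO, mostly from CD3E (0.979 ± 0.0760 and 4.83 ± 0.359 CPM; SD, n = 3), while CD3D was at 0.00953 and 0.0110 CPM. The 8 myeloid markers summed to 2.51 to 3.07 CPM in WT against 1.29 to 1.72 in CD38 KO, the 4 erythroid and megakaryocyte markers to at most 0.469 CPM with PF4 at 0 in every library, and the 5 stromal and endothelial markers to 3.49 to 4.55 and 5.76 to 6.84 CPM. The part of such cells in the differences below was not tested. In RNA from bulk cells, fewer cells expressing a gene and less RNA per cell cannot be told apart.

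The SYK and BTK transcripts were much lower in CD38 KO than in WT, BLNK and CD79B were slightly lower, and LYN and PTPN6 were higher. By edgeR's quasi-likelihood test with Benjamini-Hochberg adjustment over all genes, 7 of the 9 tested components were called at an adjusted p under 0.05, 4 lower and 3 higher. CD79A, 1 of the 3 higher, passed the filter on low counts only through the CD38 KO libraries and cannot support a direction. Across all 20120 tested genes 44.4% were called, 22.8% higher and 21.6% lower. With library size alone as the scaling, the 4592 higher and 4342 lower genes became 3632 and 5570, while the components gave the same 3 and 4. Among genes averaging at least 1 CPM, 56.7% were called, and all 6 components at that level were. The median log2 fold change of the 9 tested components was -0.28, against 0.000212 over all tested genes. This median is the value of CD72, which was not called. It was -0.36 with library size alone and -0.0935 without the filter, so it does not describe a general lowering. SYK and BTK were the 2 components called with a fall of at least 2-fold, as 5.26% of tested genes were. The groups were fully separated in CPM for 7 of the 9, CD79A among them, and for 52.5% of all tested genes.

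**Figure D1:**
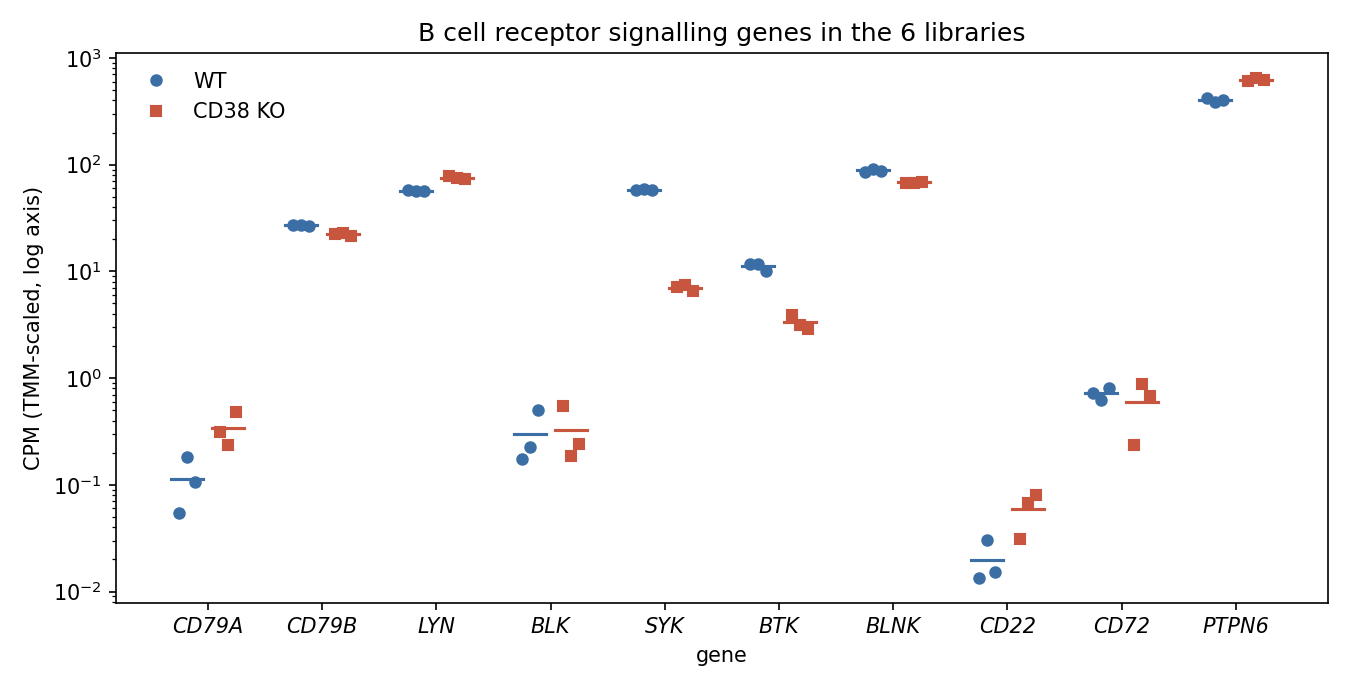
CPM (log axis) of the 10 components in each of the 3 WT and 3 CD38 KO libraries, with horizontal lines at the group means. SYK lies at 57.5 to 58.6 CPM in WT against 6.54 to 7.43 in CD38 KO, whereas CD79A, BLK, CD72 and CD22 lie below 1 CPM in every library.

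PU.1 (SPI1) and other ETS factors bind sequences with a GGAA core and act on several B lineage genes, so short stretches before the transcription start sites are shown for the 2 components that fell most. A stretch of 250 bases before each start in RefSeq (GRCh38.p14) was searched on both strands for GAGGAAGT, a PU.1 and ETS motif, for ATTTGCAT, the octamer motif of POU2F factors, for CAGGTG, an E-box, and for CCCNNGGGA, an EBF1 motif. RefSeq windows matched 7 components, with 11 windows in all. The components without a match by symbol were BLK, CD79B and LYN. The PU.1 and ETS matches of SYK and BTK, with 11 flanking bases on each side and the motif in capitals, are printed 5′ to 3′ on the strand of the gene, and a motif on the other strand reads as its reverse complement (ACTTCCTC).
SYK, 82 bases before its start (chr9:90801726-90801755, plus strand): cgcgacactggGAGGAAGTgcgggccgcct
BTK, 171 bases before its start (chrX:101390949-101390978, minus strand): ttcccgatcgcACTTCCTCatgggagtcgg
BTK, 29 bases before its start (chrX:101390807-101390836, minus strand): cactcaccccgACTTCCTCccgccccgcag

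The exact PU.1 and ETS motif was found in 1 of 3 SYK windows, 1 of 2 BTK windows and none of the other windows searched. It was in 2.17% of all 35116 windows. BLK, CD79B and LYN had no window to search. The match is not particular to genes that fell if 1 letter may differ. The BLNK window holds AGGAAGT and that of PTPN6, which rose, its reverse complement ACTTCCT, each lacking only the first letter of the motif. Both BTK matches fall within or across the annotated start of RPL36A (chrX:101390824), a gene on the opposite strand. The E-box was found in windows of BLNK, CD79A, SYK and PTPN6 and in 17.5% of all windows. The EBF1 motif was found for PTPN6 alone among the components, where it overlaps itself on the opposite strand, and in 7.84% of all windows. The octamer was found in none of the 11 windows and in 1.63% of all windows. A match is a description of these letters and not a binding site. Of the factors named for these motifs, SPI1 had 43.4 ± 1.15 CPM in WT against 18.4 ± 1.23 in CD38 KO, the E-box binding TCF3 320.3 ± 29.5 and 614.0 ± 18.3 CPM, POU2F2 35.9 ± 0.157 and 58.4 ± 1.54 CPM, and EBF1 0.236 ± 0.142 and 0.178 ± 0.112 CPM (SD, n = 3). The part of these factors in the component levels was not tested.

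SYK, the kinase that relays the signal from the phosphorylated CD79 tails, fell most. Its 3 WT libraries had 57.5, 58.6 and 58.2 CPM (4256, 3884 and 3825 counts) and its 3 CD38 KO libraries 7.13, 7.43 and 6.54 CPM (456, 442 and 405 counts). Every CD38 KO library was far below every WT library, and the CD38 KO mean was 12.1% of the WT mean, 8.26-fold lower. The log2 fold change was -3.05 ± 0.0710 (SE), with an edgeR adjusted p of 3.63e-18. A more negative log2 fold change was found for 180 called genes, 0.895% of those tested. ZAP70, the related kinase of T cells, was at 0.120 ± 0.0787 CPM in WT against 0.0980 ± 0.0359 in CD38 KO (SD, n = 3) and was too low to be tested.

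BTK, the Tec family kinase that is the target of ibrutinib and that phosphorylates phospholipase C gamma, was the second component to fall more than 2-fold. It had 11.8, 11.7 and 10.2 CPM in the WT libraries (877, 777 and 667 counts) and 3.94, 3.14 and 2.91 CPM in the CD38 KO libraries (252, 187 and 180 counts). The groups were well separated, and the CD38 KO mean was 29.6% of the WT mean. Its log2 fold change was -1.75 ± 0.130 (SE; edgeR adjusted p = 4.39e-10). TEC, the relative of BTK, was at 49.8 ± 0.579 CPM in WT against 53.3 ± 2.82 in CD38 KO (SD, n = 3; edgeR adjusted p = 0.147), a log2 fold change of 0.10 with a 95% interval of -0.0131 to 0.21. Scaled to exon length, TEC was at 12.3 CPM per kb in WT, above BTK at 2.46 CPM per kb.

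Both kinases also fell relative to LYN within each library, a comparison that needs no scaling between libraries. LYN was itself higher in CD38 KO (log2 fold change 0.40), so the ratios to LYN fell by more than SYK and BTK did. The ratio of SYK to LYN counts was 0.993, 1.03 and 1.03 in WT, against 0.0902, 0.1000 and 0.0890 in CD38 KO. The ratio of BTK to LYN counts was 0.205, 0.206 and 0.179 in WT, against 0.0499, 0.0423 and 0.0395 in CD38 KO. In both cases every CD38 KO ratio was below every WT ratio. SYK fell further than BTK, so that the ratio of BTK to SYK counts rose from 0.193 ± 0.0168 to 0.473 ± 0.0695 (SD, n = 3). A two-sided exact permutation test gave p = 0.1 for each of these 3 ratios, the smallest that 3 against 3 libraries can give, and 0.12 after adjustment over the 6 ratios computed.

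BLNK, the adaptor that joins SYK to BTK and phospholipase C, was lower by a smaller amount. The WT libraries had 86.1, 90.8 and 87.6 CPM and the CD38 KO libraries 67.7, 67.3 and 69.2 CPM. The groups did not overlap, and the CD38 KO mean was 77.2% of the WT mean (log2 fold change -0.37 ± 0.0466, SE; edgeR adjusted p = 1.02e-06). BLNK shares 355 exonic bases with ZNF518A, which is annotated on the opposite strand and had on average 1334 counts in WT and 1145 in CD38 KO, so some BLNK reads may belong to it if strand was not used in counting.

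The receptor subunits CD79A and CD79B, which pair to carry the signalling tails, were at very different levels. CD79B had 27.2, 27.1 and 26.9 CPM in WT against 22.2, 23.0 and 21.4 in CD38 KO, without overlap (log2 fold change -0.28 ± 0.0682, SE; edgeR adjusted p = 0.00171). CD79A had 4, 12 and 7 counts in WT, against 20, 14 and 30 in CD38 KO, and every CD38 KO library was above every WT library in CPM. Its mean was 0.114 CPM in WT against 0.344 in CD38 KO, and the log2 fold change was 1.59 with an SE of 0.566 (edgeR adjusted p = 0.0264). The CD79A call did not hold without WT replicate 1 (edgeR adjusted p of 0.127), without WT replicate 3 (0.0795) or without CD38 KO replicate 3 (0.159). Its adjusted p lay between 0.0205 and 0.159 in the alternatives tried. CD79A passed the filter on low counts only through the CD38 KO libraries, so its difference cannot stand as support for a direction. Per kb of exon, CD79B was 108.0 to 363.8 times the level of CD79A in the WT libraries and 31.96 to 70.7 times in the CD38 KO libraries. The wide WT range goes with the 4 to 12 CD79A counts behind it.

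Among the immunoglobulin constant genes that would complete a receptor, IGHG1 went from 285.9 ± 13.3 to 488.2 ± 15.1 CPM (SD, n = 3), IGHM and IGHD were at most 0.0152 CPM in either group, and the lambda gene IGLC2 was at 287.2 ± 5.82 and 320.7 ± 59.7 CPM. Reads can be divided between such similar constant genes.

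LYN, the Src family kinase that both starts the signal and phosphorylates the inhibitory receptors, was higher in CD38 KO. It had 57.9, 57.0 and 56.7 CPM in the WT libraries and 79.1, 74.3 and 73.5 CPM in the CD38 KO libraries. Every CD38 KO library was above every WT library, and the CD38 KO mean was 1.32 times the WT mean (log2 fold change 0.40 ± 0.0496, SE; edgeR adjusted p = 8.41e-07). BLK, a Src family kinase found mainly in B cells, was at trace level. It had 13, 15 and 33 counts in WT and 35, 11 and 15 in CD38 KO, and the groups overlapped. Its log2 fold change of 0.12 had a 95% interval of -0.97 to 1.21 (edgeR adjusted p = 0.877), so a difference inside that interval was not detectable at this depth. BLK shares 65 exonic bases with a transcript annotated on the opposite strand that had more counts than BLK, on average 84.7 in WT and 126.3 in CD38 KO.

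PTPN6, the phosphatase recruited by inhibitory receptors, rose. The WT libraries had 416.9, 389.5 and 406.6 CPM and the CD38 KO libraries 606.3, 648.5 and 617.5 CPM. The groups were far apart, and the CD38 KO mean was 1.54 times the WT mean (log2 fold change 0.63 ± 0.0392, SE; edgeR adjusted p = 2.92e-11). The ratio of SYK to PTPN6 counts went from 0.144 ± 0.00631 in WT to 0.0113 ± 0.000609 in CD38 KO (SD, n = 3), and every CD38 KO library was below every WT library. PTPN11 (SHP-2), the related phosphatase, was at 78.0 ± 1.59 and 98.1 ± 3.30 CPM (SD, n = 3), a log2 fold change of 0.33 (edgeR adjusted p = 4.42e-06).

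The inhibitory receptors CD22 and CD72 were both low, and neither was called. CD72, a C-type lectin-like receptor, had 54, 41 and 53 counts in WT and 15, 52 and 42 in CD38 KO. The groups overlapped, with CD38 KO replicate 1 well below the other 5 libraries (log2 fold change -0.28, 95% interval -1.07 to 0.52; edgeR adjusted p = 0.601). CD72 shares 509 exonic bases with TESK1 on the opposite strand, whose counts averaged 1876 in WT and 1467 in CD38 KO. CD22, a sialic acid-binding lectin, had 1, 2 and 1 counts in WT and 2, 4 and 5 in CD38 KO. Its summed counts gave a ratio of 3.06 for CD38 KO over WT, scaled to library size. The 95% counting interval was 0.905 to 13.2, so neither a difference nor equal levels can be excluded. Such intervals hold counting error alone, because reads lacking molecular identifiers do not each stand for a molecule.

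**Figure D2:**
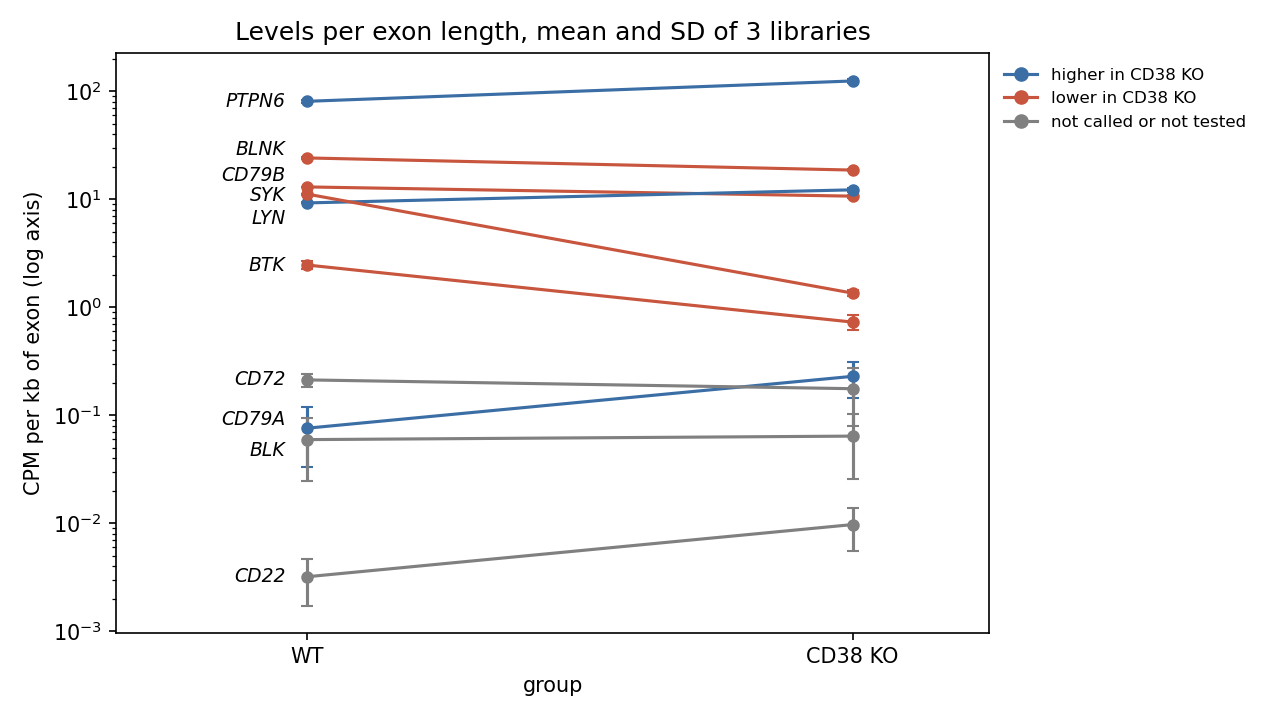
Mean level of each component in CPM per kb of exon (log axis) in WT and CD38 KO, with the SD of 3 libraries as error bars. SYK drops from 11.2 to 1.35 CPM per kb, crossing below LYN, which goes from 9.25 to 12.2 CPM per kb.

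Levels of different genes were compared only per kb of exon, with the exon length from GENCODE 29. In WT the order was PTPN6 (80.7 ± 2.76 CPM per kb), BLNK (24.1 ± 0.656), CD79B (13.0 ± 0.0855), SYK (11.2 ± 0.109), LYN (9.25 ± 0.0996) and BTK (2.46 ± 0.206; SD, n = 3). CD72 followed at 0.212 ± 0.0279 CPM per kb, then CD79A and BLK at 0.0758 ± 0.0425 and 0.0594 ± 0.0346, which did not differ beyond their spread, and CD22 at 0.00319 ± 0.00149. In CD38 KO, LYN (12.2 ± 0.488 CPM per kb) stood above CD79B (10.7 ± 0.380), SYK came after both at 1.35 ± 0.0869, and BTK was at 0.728 ± 0.119 (SD, n = 3). PTPN6 and BLNK kept the top places at 124.6 ± 4.37 and 18.6 ± 0.282 CPM per kb. CD79A and CD72, at 0.229 ± 0.0848 and 0.176 ± 0.0967 CPM per kb in CD38 KO, did not differ beyond their spread. In this order the components fall into 6 genes above 0.5 CPM per kb in both groups and 4 genes, CD72, CD79A, BLK and CD22, below it in both.

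The genes around each component were examined to see whether a difference was shared along the chromosome (GENCODE 29, build GRCh38). SYK lies on chromosome 9 (90801787 to 90898549). Only 4 other protein-coding genes within 1 Mb were tested, and none had a log2 fold change below that of SYK. The nearest on the side before SYK, the Ras-related gene DIRAS2 158682 bases away, also fell, from 8.61 ± 0.533 to 2.16 ± 0.139 CPM (SD, n = 3), which was 25.0% of the WT mean (edgeR adjusted p = 8.92e-11). The nearest on the other side, AUH, an RNA-binding mitochondrial enzyme, was at 32.6 ± 2.13 and 33.4 ± 2.07 CPM (log2 fold change 0.04, edgeR adjusted p = 0.704). The 537 tested protein-coding genes of chromosome 9 had a median log2 fold change of -0.0156.

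BTK lies on chromosome X (101349447 to 101390796), with RPL36A 28 bases from its start on the opposite strand and TIMM8A 251 bases past its 3′ end. RPL36A, a ribosomal protein gene with similar copies elsewhere, was at 3.22 ± 0.199 and 2.74 ± 0.437 CPM (log2 fold change -0.23, 95% interval -0.59 to 0.13, edgeR adjusted p = 0.300). TIMM8A, a mitochondrial import chaperone, went from 12.04 ± 1.30 to 9.79 ± 1.05 CPM (log2 fold change -0.30, edgeR adjusted p = 0.0294), and the groups overlapped. Of 17 tested genes within 1 Mb of BTK, 6 were lower and 1 higher, with a median log2 fold change of -0.23 and a lowest value of -0.91. None fell as far as BTK.

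PTPN6 lies on chromosome 12 (6946468 to 6961316), where neighbouring genes rose with it. Of 40 other tested protein-coding genes within 1 Mb, 25 were higher in CD38 KO and none was lower, with a median log2 fold change of 0.50, near the 0.63 of PTPN6. The other 15 neighbours were not called. Among all tested genes 22.8% were higher, as were 28.9% of those averaging at least 1 CPM. Across the 718 tested protein-coding genes of chromosome 12 the median log2 fold change was -0.15. Around LYN on chromosome 8, 2 of 6 tested genes were higher and none lower, and all 6 had a log2 fold change below that of LYN (median -0.0187).

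**Figure D3:**
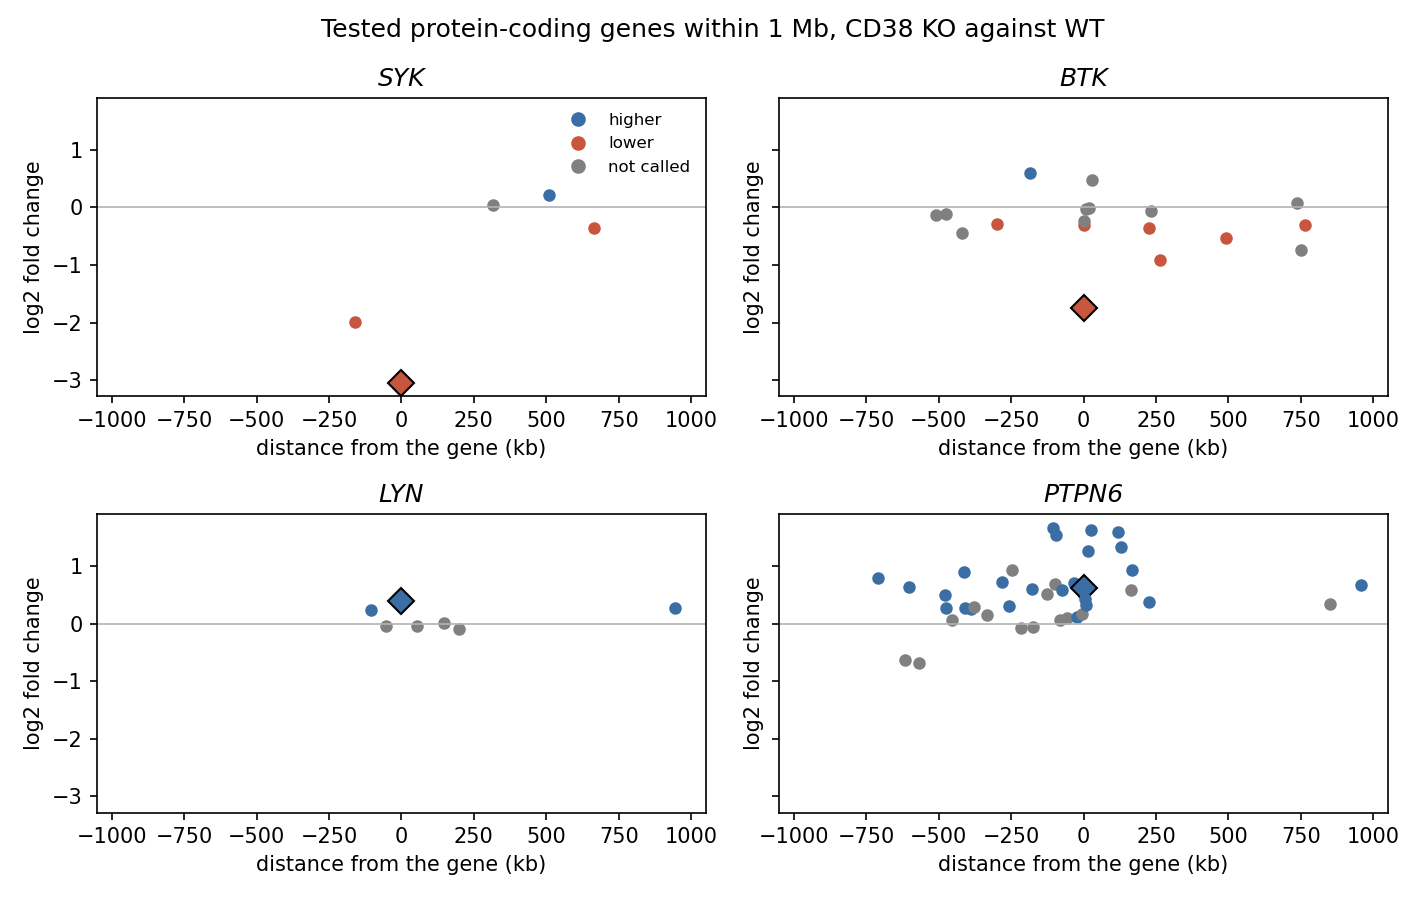
Log2 fold change (CD38 KO minus WT) of each tested protein-coding gene within 1 Mb of SYK, BTK, LYN and PTPN6, against its distance in kb; the diamond is the named gene and colours give the edgeR call. SYK and BTK lie below every neighbour, whereas PTPN6 lies among neighbours with a median of 0.50.

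The other 100 listed genes of the pathway showed both directions. Of 87 tested, 35 were higher, 30 were lower and 22 were not called, with a median log2 fold change of 0.0631, where 44.4% of all tested genes were called. With library size alone as the scaling the balance turned, to 30 higher and 34 lower with a median of -0.0204. At a mean of at least 1 CPM, 63 of 82 were called, where 56.7% of all such genes were, 28.9% higher and 27.8% lower. The next paragraphs take them by role, and each count there is to be read beside these shares over all genes.

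Of 5 tested genes of the surface co-receptor complex, 3 fell and none rose. The complement receptor CR2 (CD21) went from 51.1 ± 2.97 to 19.4 ± 0.392 CPM (SD, n = 3), with a log2 fold change of -1.40 (edgeR adjusted p = 1.95e-13). The tetraspanin CD37 went from 10.04 ± 0.663 to 0.675 ± 0.114 CPM (log2 fold change -3.89, edgeR adjusted p = 3.80e-14). PTPRC (CD45), the phosphatase that activates Src family kinases, had 43, 25 and 42 counts in WT and 0, 10 and 6 in CD38 KO (log2 fold change -2.59, edgeR adjusted p = 0.00226). PTPRC, 1 of the 3 that fell, passed the low-count filter only through the WT libraries, so its difference cannot stand as support for a direction. Leaving out CD38 KO replicate 1 gave it -1.99 on the log2 scale, and leaving out CD38 KO replicate 2 gave -3.43. IFITM1 was not called, at 1.56 ± 0.426 and 1.99 ± 0.125 CPM, and CD81 was the other tested gene not called.

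Among the other Src and Tec family kinases, with CSK and PAG1 that restrain them, 5 of 9 tested genes rose and 1 fell, and 1 of the 5 passed the low-count filter only through the CD38 KO libraries. YES1 went from 3.65 ± 0.498 to 7.82 ± 0.636 CPM (log2 fold change 1.10) and CSK, which phosphorylates the inhibitory tyrosine of Src kinases, from 116.4 ± 3.18 to 150.1 ± 5.90 CPM (log2 fold change 0.37). The Tec family kinase TXK went from 3.23 ± 0.710 to 1.55 ± 0.287 CPM (log2 fold change -1.06; edgeR adjusted p = 0.000276).

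Of 17 adaptors, 7 rose and 5 fell, which became 5 and 7 with library size alone as the scaling. LAT2, a membrane scaffold of B cells and myeloid cells, went from 31.5 ± 0.473 to 100.7 ± 0.638 CPM (SD, n = 3), with a log2 fold change of 1.68 (edgeR adjusted p = 1.36e-16). LCP2 (SLP-76), the T cell and myeloid relative of BLNK, went from 109.6 ± 1.12 to 186.3 ± 2.45 CPM (log2 fold change 0.77). Thus LCP2 rose while BLNK fell. SH2B2 and CRK, 2 further adaptors, had log2 fold changes of 0.65 and 0.67, both higher. STAP1, a docking protein that acts downstream of TEC and was named after its values were seen, went from 4.99 ± 0.289 to 1.23 ± 0.187 CPM (log2 fold change -2.02).

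The enzymes that act on membrane lipids and release calcium moved in both directions, 5 higher and 6 lower of 15 tested. Phospholipase C gamma 2 (PLCG2), the substrate of BTK, went from 121.1 ± 6.62 to 181.3 ± 1.37 CPM (log2 fold change 0.58, edgeR adjusted p = 7.14e-10), and PLCG1 rose by 0.60. ITPR1, the calcium release channel opened by inositol trisphosphate, rose by a log2 fold change of 2.15. PIK3CA, a catalytic subunit of phosphoinositide 3-kinase, went from 104.5 ± 6.57 to 47.7 ± 1.02 CPM (log2 fold change -1.13).

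Of 10 small GTPases and exchange factors, 2 rose and 3 fell. VAV3 went from 4.23 ± 0.516 to 12.6 ± 0.858 CPM (log2 fold change 1.58). RASGRP3, the diacylglycerol-activated Ras exchange factor of B cells, went from 257.6 ± 5.30 to 135.7 ± 7.52 CPM (log2 fold change -0.92). RAC2 rose by 0.29 and DOCK2 fell, with a log2 fold change of -0.27.

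The branch of PKC, NF-kB adaptors and calcineurin was mostly lower, with 8 of 13 tested genes lower and 2 higher, against 27.8% lower among all genes at a mean of at least 1 CPM. PRKCD, a PKC isoform with roles in B cell tolerance, went from 24.9 ± 0.585 to 4.58 ± 0.565 CPM (log2 fold change -2.45, edgeR adjusted p = 2.15e-14). PRKCB, a PKC isoform needed for NF-kB activation in B cells, rose from 41.6 ± 1.81 to 75.6 ± 2.36 CPM (log2 fold change 0.86). MALT1, a paracaspase that acts in NF-kB activation, and PPP3CA, a calcineurin catalytic subunit, fell, with log2 fold changes of -0.63 and -0.95.

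The list of negative regulators held inhibitory receptors and phosphatases together with adaptors such as LAX1 and the DOK proteins and the ubiquitin ligases CBL and CBLB. All 18 tested genes of the list were called, 14 higher and 4 lower, with a median log2 fold change of 0.31. All 18 averaged at least 1 CPM, where 56.7% of all such genes were called, 28.9% higher and 27.8% lower. With library size alone as the scaling, 13 were higher and 4 lower. PECAM1 (CD31), an adhesion receptor with inhibitory tyrosine motifs, went from 30.7 ± 0.932 to 128.2 ± 3.29 CPM (log2 fold change 2.06, edgeR adjusted p = 5.51e-18). LAX1, a membrane adaptor that restrains lymphocyte signalling, went from 40.9 ± 1.73 to 118.9 ± 4.61 CPM (log2 fold change 1.54). The inhibitory Fc receptor FCGR2B moved the other way, from 4.78 ± 0.238 to 0.375 ± 0.124 CPM (log2 fold change -3.66, edgeR adjusted p = 2.63e-11).

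**Figure D4:**
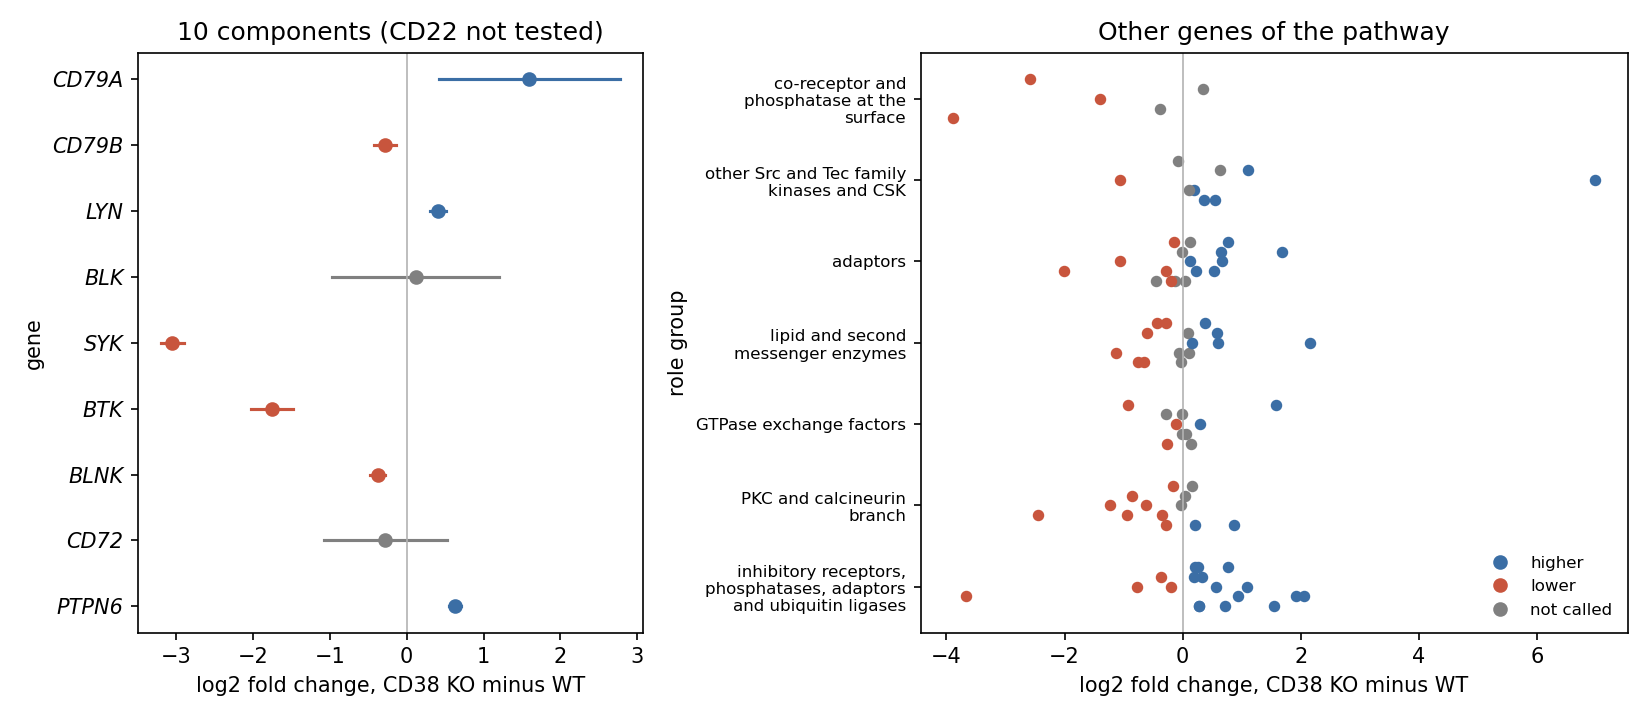
Left, log2 fold change (CD38 KO minus WT) of the 9 tested components with 95% intervals from edgeR. Right, the same value for each of the 87 tested other genes of the pathway, by role group, coloured by call: 14 of 18 genes on the list of negative regulators were higher, and 8 of 13 genes of the PKC and calcineurin branch were lower. Over all genes averaging at least 1 CPM, 28.9% were higher and 27.8% lower.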

How the data were processed

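RNA of 3 WT and 3 CD38 KO libraries was converted to cDNA by a SMARTer Ultra Low method, as the labels state. The authors deposited raw read counts per gene in 1 table. Per the submitters' processing notes, STAR 2.7.9a, Partek and DESeq2 were used, with no role given. Not given in the sources used here are the build, annotation, counter and strand handling. The 60871 lines repeated 200 identifiers with the same counts, which left 60671 genes. WT and CD38 KO were tested with edgeR 4.0.16 (R 4.3.3): TMM scaling, the filterByExpr rule, a quasi-likelihood fit without covariates and Benjamini-Hochberg adjustment over 20120 genes. Standard errors were derived from the quasi-likelihood F statistic. No 2 libraries agreed within sampling noise. Counts over 19325 genes were simulated with 1 dispersion for all genes, and 200 genes averaging at least 1 CPM in WT were changed. Of the 1.5-fold changes 95.5% were recovered, and 2.96% of 203 calls were false. Recovery below 1 CPM was not simulated, and far fewer genes were changed than were called in the data.

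Exon lengths, positions and overlaps came from GENCODE 29 through the Ensembl identifier, which may not be the authors' annotation. Promoter sequences are from RefSeq (GRCh38.p14). Protein motifs, planned as a description, were not analysed here. All 10 components are named, with CD38, up to 4 genes per role group with the smallest adjusted p, and relatives and neighbours of components, which were chosen after values were seen; some genes of the rule are not reported here. The components and lists were chosen with earlier results of these data known. Alternatives were RLE factors, library size alone, no filter, DESeq2 1.42.0, limma-voom (limma 3.58.1), a minimum of 1 CPM in 3 libraries, a replicate block and leaving out each library.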

Additional observations from a re-analysis of the deposited data

How the results depend on the processing

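SYK, BTK, BLNK, CD79B, LYN and PTPN6 kept their direction and their call in all 13 alternatives, with log2 fold changes of -3.13 to -2.99, -1.89 to -1.66, -0.46 to -0.35, -0.37 to -0.25, 0.32 to 0.43 and 0.54 to 0.65. The count of components called was 6 to 7, and leaving out 1 library gave 6 to 7, 60 to 65 for the other pathway genes and 7767 to 8761 for all genes. With the replicate number as a block, 7 components, 66 pathway genes and 8918 genes were called. The numbers did not pair the libraries: same-numbered WT and CD38 KO libraries had correlations of deviations of -0.0207 to 0.0337. BLK, not called, changed sign without WT replicate 1 (-0.16), without WT replicate 2 (-0.0471) and without CD38 KO replicate 1 (-0.48), and CD72 without CD38 KO replicate 1 (0.11). Leaving out 1 library at a time gave -0.48 to 0.69 for BLK and -0.66 to 0.11 for CD72. The filter at 1 CPM left CD79A, BLK and CD72 untested. Depth limits these 3 genes and CD22: 3 counts, the most that a count of 0 allows, came to a mean of 0.0438 CPM for WT libraries against 0.0486 for CD38 KO.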

Other observations

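Of 11 transcription factors of the B lineage, a list chosen after the values were seen, 10 were tested, 3 were higher and 4 lower by edgeR. SPIB, 1 of the 4 lower, passed the low-count filter only through the WT libraries and cannot support a direction. POU2AF1, a B cell coactivator, was at 560.7 CPM in WT against 546.8 in CD38 KO (edgeR adjusted p = 0.479), and ETS1 went from 22.5 to 13.4 CPM. Of 14 immunoglobulin constant genes, 9 were tested, 4 were higher and 2 lower. Over all tested genes, 22.8% were higher and 21.6% lower. Within 1 Mb of the remaining components, the tested neighbours divided into 5 higher and 3 lower of 14 around BLNK, 10 and 7 of 25 around CD79B, 8 and 9 of 27 around CD79A, 13 and 8 of 34 around CD72, 3 and 5 of 11 around BLK, and 21 and 5 of 44 around CD22.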
